A study of Mus musculus with 4 samples.

Results

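Read counts at the N6-methyladenosine (m6A) peaks of 7 genes of the oligodendrocyte lineage are described here: Pdgfra, Cspg4, Gpr17, Sox10, Olig1, Olig2 and Myrf. The genes were chosen by name with earlier results of these data known, and every peak that the deposited table assigns to them was taken, which gave 28 of 33977 peaks and 7 of 10415 genes. The samples were cerebral cortex of sham-treated mice and of mice with repetitive mild traumatic brain injury (rmTBI), with 2 libraries in each group, numbered 0 and 1 in their titles. All 4 libraries are labelled as carrying the same antibody against m6A, a methyl group on adenosines inside RNA, and m6A sequencing counts the RNA fragments that the antibody pulls down. The sources used here give no strain, age, sex, injury protocol, time since the injury or number of mice. They also do not say what the numbers 0 and 1 mark or whether the libraries came from separate mice, so p-values cover the spread among the 4 libraries alone, and that spread may be technical. The log2 values in the authors' deposited table follow the quotient of rmTBI libraries 1 and 0 divided by that of sham libraries 1 and 0 (Pearson's r = 0.99 over the peaks, where 1 peak is no replicate of another) and not rmTBI over sham (r = -0.29). That is the form of a comparison of antibody libraries with input RNA, the RNA before the pull-down, so it is not settled that both numbers hold antibody libraries, although the labels say so. All means, SDs, p-values and folds of rmTBI over sham below take the labels as given and treat the libraries of a group as replicates. If 1 number were input, those of a group would not be replicates, and these values would mix RNA abundance with pull-down. The values within each number, given further on, do not average over the numbers. Even with 4 antibody libraries, a difference in counts does not separate methylation of a transcript from its abundance, and in whole cortex fewer cells of a type and less RNA per cell cannot be told apart.

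Oligodendrocytes wrap axons in myelin and arise from progenitors that persist in the adult cortex and divide after injury. Progenitors carry the receptor PDGFRA, which receives the growth factor PDGF-AA, and the proteoglycan NG2, the product of Cspg4. The transcription factors OLIG1, OLIG2 and SOX10 specify and keep the lineage. As cells leave the progenitor state they pass through a stage that expresses the receptor GPR17, and MYRF then switches on myelin genes in maturing cells. Some of these markers are shared with other cells: Pdgfra with fibroblasts of the meninges and Cspg4 with pericytes of small vessels.

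The peaks were called apart in each condition, and the genes held 15 rows of the rmTBI set and 13 of the sham set. Overlapping rows on 1 strand merged into 18 sites. Of these, 9 were found in both sets, 6 in that of rmTBI alone and 3 in that of sham alone. Over all genes, 16034 rows were of the rmTBI set and 17943 of the sham set. Shares of shared and 1-set sites over all genes are not given, so these counts of sites have no background to be read against. Peaks are numbered up to 28375 for rmTBI and 28022 for sham, more than the rows used here, so a site of 1 set is 1 among these rows only. Rows that overlap share reads and are not independent. Pdgfra had 5 sites, Cspg4 had 4, Gpr17, Sox10, Olig1 and Olig2 had 2 each, and Myrf had 1. By the deposited classes, 14 rows were coding, 10 were of 3' UTRs and 4 of 5' UTRs, and all 4 of the last class were in Pdgfra. All 28 rows fell inside the RefSeq span of their gene on GRCm38.p6. Coordinates below come from the deposited table and were read on that build.

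**Figure D1:**
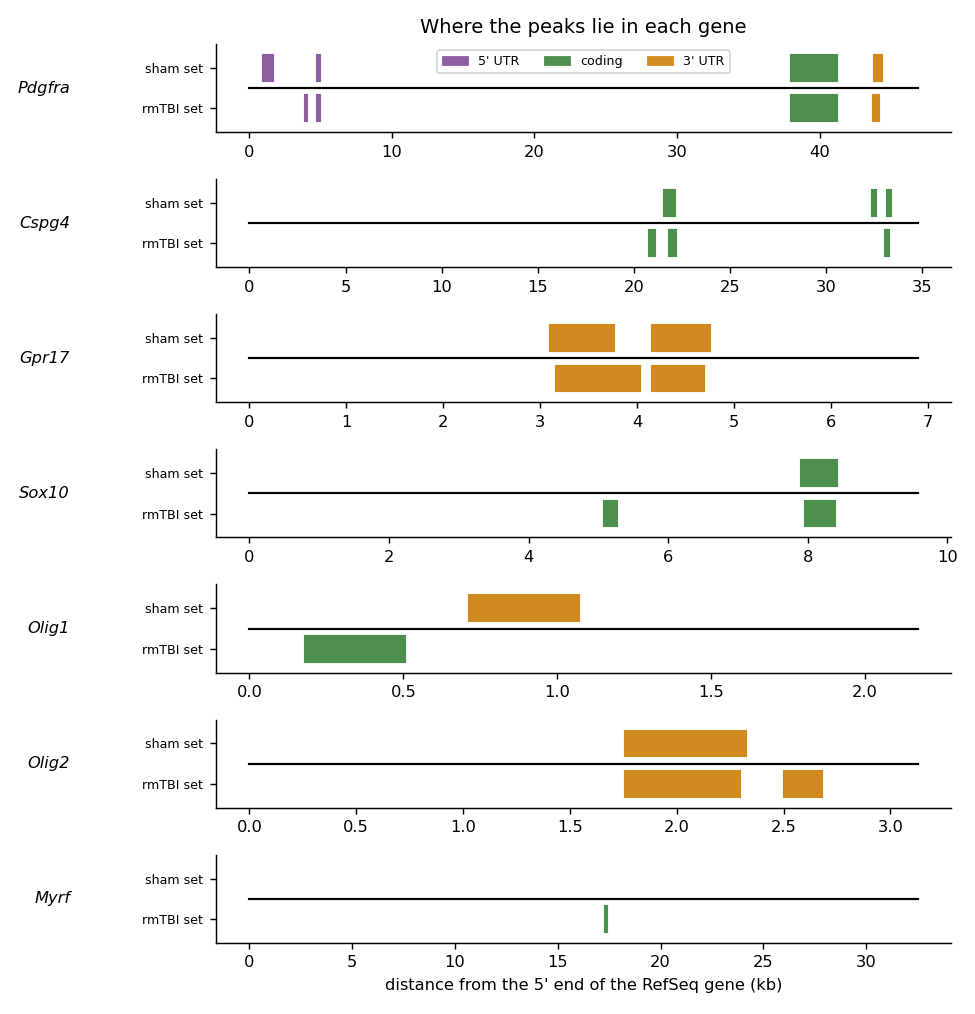
Peaks along each gene, with distance from the 5' end of the RefSeq gene in kilobases on the x axis; bars above the line are peaks of the sham set, bars below it peaks of the rmTBI set, coloured by deposited class. Gpr17 and Olig2 have 3' UTR peaks alone, Cspg4, Sox10 and Myrf coding peaks alone, and Myrf has a single peak, in the rmTBI set.

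Sequence could be set beside a peak at Pdgfra, where a 5' UTR peak of the sham set on chromosome 5 (75152291 to 75153009) began 40 bases after the gene start of the RefSeq promoter table and 969 bases after the start of the longer RefSeq gene span used for the map of peaks. The 30 bases at the end of that promoter window are shown because the peak covers the last 10 of them, printed in capitals.
Pdgfra, GRCm38.p6, plus strand, chr5:75152271-75152300: atgattagtttttggaggacGGACTATAAC
The peak opened on the letters GGACT, the best-known form of the m6A consensus, a motif chosen after the sequence was seen. Only these 10 of the peak's 719 bases could be read, and the edge of a peak does not place a methylated adenosine. GGACT occurred 1 time in the 30 bases on the strand of the gene, which reads as its RNA does, and 0 times on the other. The same stretch of all 32851 promoter windows held GGACT on the strand of the gene in 3.36% and on either strand in 5.95%. Of the 7 genes, 3 had an entry in that table, and the peaks of Cspg4 and Olig2 lay outside their windows.

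The peak level was highest for Gpr17 and lowest for Cspg4 when counts were set per length and averaged over the 4 libraries, while in rmTBI alone Myrf was the lowest. In TMM-scaled CPM, the counts scaled to library size, per kilobase of peak, at each gene's highest row, Gpr17 stood at 94.0 ± 39.99 in sham and 114 ± 46.4 in rmTBI (SD, n = 2 libraries each, as for every mean below). Sox10 followed with 71.9 ± 31.0 and 53.0 ± 8.11, Olig2 with 31.3 ± 17.7 and 27.1 ± 12.1, and Pdgfra with 19.7 ± 12.1 and 17.1 ± 11.1. Olig1 stood at 17.6 ± 1.14 and 12.2 ± 1.06, Myrf at 12.7 ± 0.425 and 4.98 ± 2.61, and Cspg4 at 8.26 ± 0.737 and 6.02 ± 3.95. Over the 4 libraries, the ranges of neighbours in this order overlapped in every case but that of Sox10 above Olig2.

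**Figure D2:**
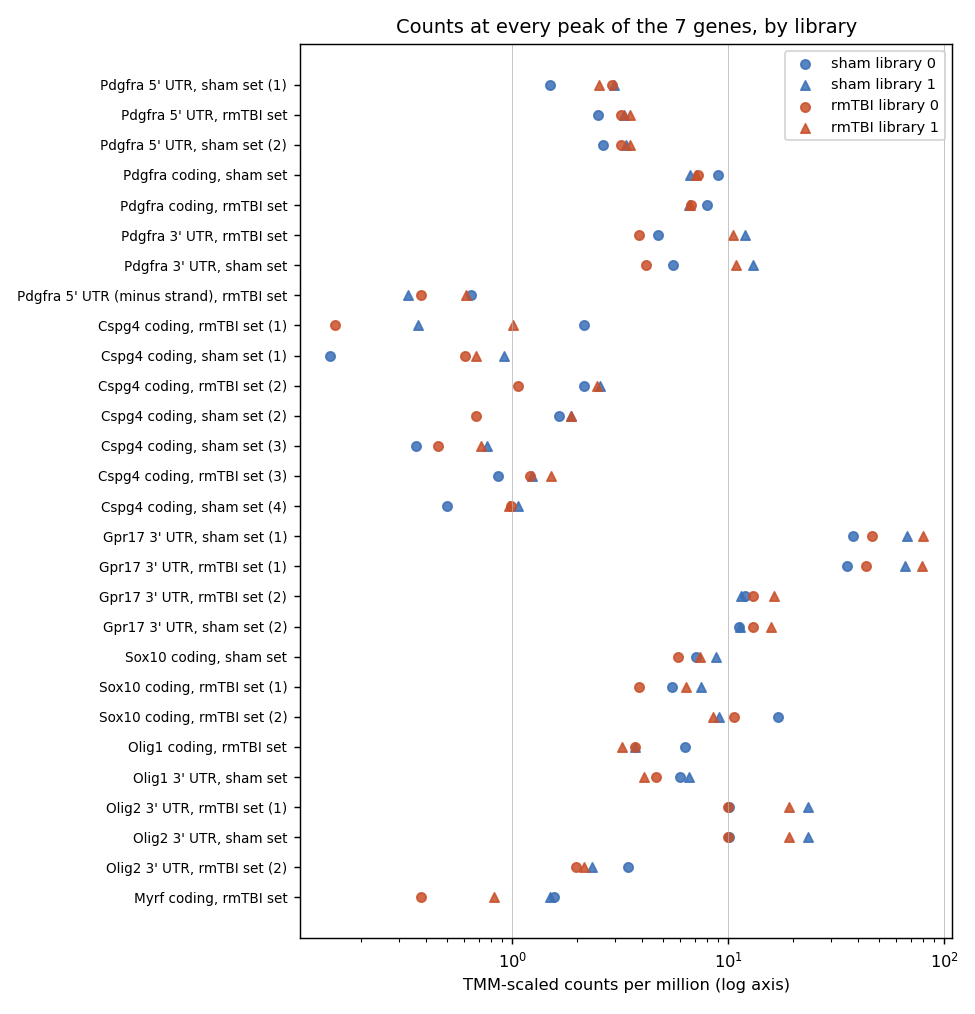
TMM-scaled CPM (log axis) at each of the 28 peaks, with circles for the libraries numbered 0, triangles for those numbered 1, blue for sham and orange for rmTBI. Gpr17 reaches 79.7 CPM, the lowest Cspg4 value is 0.143 CPM, and at the Pdgfra 3' UTR peaks and the main Olig2 site symbols separate by library number rather than by group.

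Between rmTBI and sham, no peak of the 7 genes was called. The edgeR quasi-likelihood test on the 4 libraries called 0 of the 28 rows at a Benjamini-Hochberg adjusted p under 0.05, where 0.0868% of all 33415 tested peaks were called. At an unadjusted p under 0.05 there were 0 of 28 rows by that test, where 2.84% of all peaks passed. By DESeq2, 0 of the 25 rows with an adjusted p were called (background 0.423%). The median log2 fold over the 28 rows was -0.16, with 12 rows higher and 16 lower, and it was 0.02 over all tested peaks. All 28 rows passed the filter on low counts.

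Pdgfra, the receptor gene of progenitors, had overlapping values in sham and rmTBI at all 8 of its rows. Its coding peak of the sham set (75189302 to 75192547, a span of 3246 bases) held 8.99 and 6.65 CPM in sham libraries 0 and 1 and 7.29 and 7.08 CPM in rmTBI libraries 0 and 1, with the rmTBI values inside the sham range. The log2 fold was -0.12 (SE 0.28). Its 3' UTR peak of the sham set (75195126 to 75195727) held 5.57 and 13.0 CPM in sham and 4.17 and 10.9 CPM in rmTBI. Both libraries numbered 1 lay above both numbered 0 there, and the log2 fold was -0.30 (SE 0.52).

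The 5' UTR of Pdgfra held 2 sites on its own strand. The most 5' site, whose first bases are printed above, held 1.499 and 2.96 CPM in sham and 2.88 and 2.51 CPM in rmTBI (log2 0.23, SE 0.43). The next one (75156091 to 75156272 in the rmTBI set) held 2.50 and 3.29 CPM in sham and 3.19 and 3.52 CPM in rmTBI (log2 0.20, SE 0.33), and the groups overlapped at both. A further row named Pdgfra in the table, of the rmTBI set, lay on the minus strand (75155193 to 75155335), opposite to the strand of the gene in RefSeq. It held 9 counts in each sham library and 5 and 17 in the rmTBI libraries, too few to order. A single RefSeq gene, Mir7025, lies within the span of Pdgfra.

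Cspg4, the NG2 gene, had low counts, and its libraries disagreed at some rows. A coding row of the rmTBI set on chromosome 9 (56885874 to 56886204) held 30 and 10 counts in sham libraries 0 and 1 and 2 and 28 counts in rmTBI libraries 0 and 1. In CPM these were 2.14 and 0.365 against 0.152 and 1.01, so that the highest and the lowest value both came from libraries numbered 0. The log2 fold of rmTBI over sham was -0.88 (SE 1.02) in the fit on all libraries, -3.17 between the libraries numbered 0 and 1.25 between those with number 1. Just downstream, a coding row of the sham set (56886653 to 56886953) went the other way, with 2 and 25 counts in sham and 8 and 19 in rmTBI, and log2 folds of 1.55 and -0.37 within the numbers.

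The Cspg4 row with the most counts (56886952 to 56887313, rmTBI set) held 2.14 and 2.56 CPM in sham and 1.06 and 2.48 CPM in rmTBI (log2 -0.36, SE 0.48), and the sham-set row inside it (56887042 to 56887253) had a log2 fold of -0.40 (SE 0.56). The 3 rows nearer the 3' end of the coding sequence held between 0.357 and 1.51 CPM, with log2 folds from 0.04 to 0.36. Sham and rmTBI values overlapped at all 7 Cspg4 rows.

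Gpr17, the receptor of the stage between progenitor and myelinating cell, lay higher in rmTBI at all 4 of its rows without passing the test. Its main 3' UTR site on chromosome 18 (31945205 to 31945743 in the rmTBI set) held 35.4 and 65.9 CPM in sham and 43.7 and 79.1 CPM in rmTBI, a log2 fold of 0.28 (SE 0.39; the Benjamini-Hochberg adjusted p of edgeR was 1). The groups overlapped there, with both libraries numbered 1 above both numbered 0. The second 3' UTR site, nearer the coding sequence (31946130 to 31946788 in the sham set), held 11.3 CPM in both sham libraries and 13.0 and 15.8 CPM in rmTBI, with no overlap between the groups (log2 0.35, SE 0.25). The RefSeq spans of Gpr17 and Lims2 overlap, and the sources used here do not say whether counting used the strand, so reads of the pair may not be told apart. In the edgeR model with the library number added, 2 rows of the 28 passed, both of the main Gpr17 site (background 10.6%).

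The 4 transcription factor genes lay lower in rmTBI at every row, again with no call. Sox10 held 17.0 and 9.06 CPM in sham and 10.6 and 8.55 CPM in rmTBI at a coding row of the rmTBI set on chromosome 15 (79159223 to 79159403; log2 -0.44, SE 0.35). Sham library 0 stood apart from the other 3 there, which lay between 8.55 and 10.6 CPM. At its other coding site (79156074 to 79156582, sham set) Sox10 held 7.07 and 8.80 CPM in sham and 5.84 and 7.44 CPM in rmTBI (log2 -0.25, SE 0.28), with overlap.

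Olig1, a partner of OLIG2 in the lineage, had the row with the smallest standard error of the 4 genes. This 3' UTR row on chromosome 16 (91270481 to 91270838, sham set) held 5.995 and 6.57 CPM in sham and 4.63 and 4.09 CPM in rmTBI, with both rmTBI libraries below both sham libraries. The log2 fold was -0.54 (SE 0.27), with an edgeR p of 0.0864 before and of 1 after Benjamini-Hochberg adjustment. At its coding row (91269949 to 91270275, rmTBI set) Olig1 held 6.28 and 3.69 CPM in sham and 3.72 and 3.23 CPM in rmTBI (log2 -0.51, SE 0.35), where sham library 0 was high and the groups overlapped. Among the rows used here the sites of Olig1 each stood in 1 set, although both rows had counts in all 4 libraries.

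Olig2, its neighbour on chromosome 16, had its main 3' UTR site at 91227309 to 91227845, with 10.1 and 23.5 CPM in sham and 9.94 and 19.1 CPM in rmTBI (log2 -0.21, SE 0.46). The row of the sham set at this site is 567 bases long against 537 in the rmTBI set and has the same count in every library. The short second site (91228052 to 91228231, rmTBI set) held 3.43 and 2.34 CPM in sham and 1.97 and 2.16 CPM in rmTBI, with both rmTBI libraries below both sham libraries (log2 -0.46, SE 0.38). The RefSeq spans of Olig2 and Gm52261 overlap.

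Myrf had the largest gene-level fold of the 7 genes, on low counts. Its 1 peak, a coding row of 121 bases on chromosome 19 (10223375 to 10223495), held 22 and 41 counts in sham libraries 0 and 1 and 5 and 23 counts in rmTBI libraries 0 and 1. In CPM these were 1.57 and 1.497 against 0.379 and 0.826, with both rmTBI libraries below both sham libraries. The log2 fold was -1.26 (SE 0.60), with an edgeR p of 0.0702 before and of 1 after Benjamini-Hochberg adjustment, and it was -1.81 and -0.79 within the numbers 0 and 1. The table holds this row in the rmTBI set and no Myrf row in the sham set, while the CPM were higher in sham.

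In all, the CPM of the groups did not overlap at 5 of the 28 rows. These were 2 rows of Gpr17, which were higher in rmTBI (background 12.3% of tested peaks), and 1 row each of Olig1, Olig2 and Myrf, which were lower (background 12.2%). Neither count exceeds the background.

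Because the titles number the libraries, rmTBI was also set against sham within each number. All 9 rows of Sox10, Olig1, Olig2 and Myrf were lower in rmTBI within both numbers, and all 4 rows of Gpr17 were higher within both. Of the 15 rows of Pdgfra and Cspg4, 9 had opposite signs between the numbers, 3 were higher in both and 3 were lower in both. Over all tested peaks, 28.5% were lower in both numbers, 32.0% higher in both and 39.6% of opposite sign. Overlapping rows and rows of 1 gene share reads or transcripts, so these counts rest on few independent units.

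**Figure D3:**
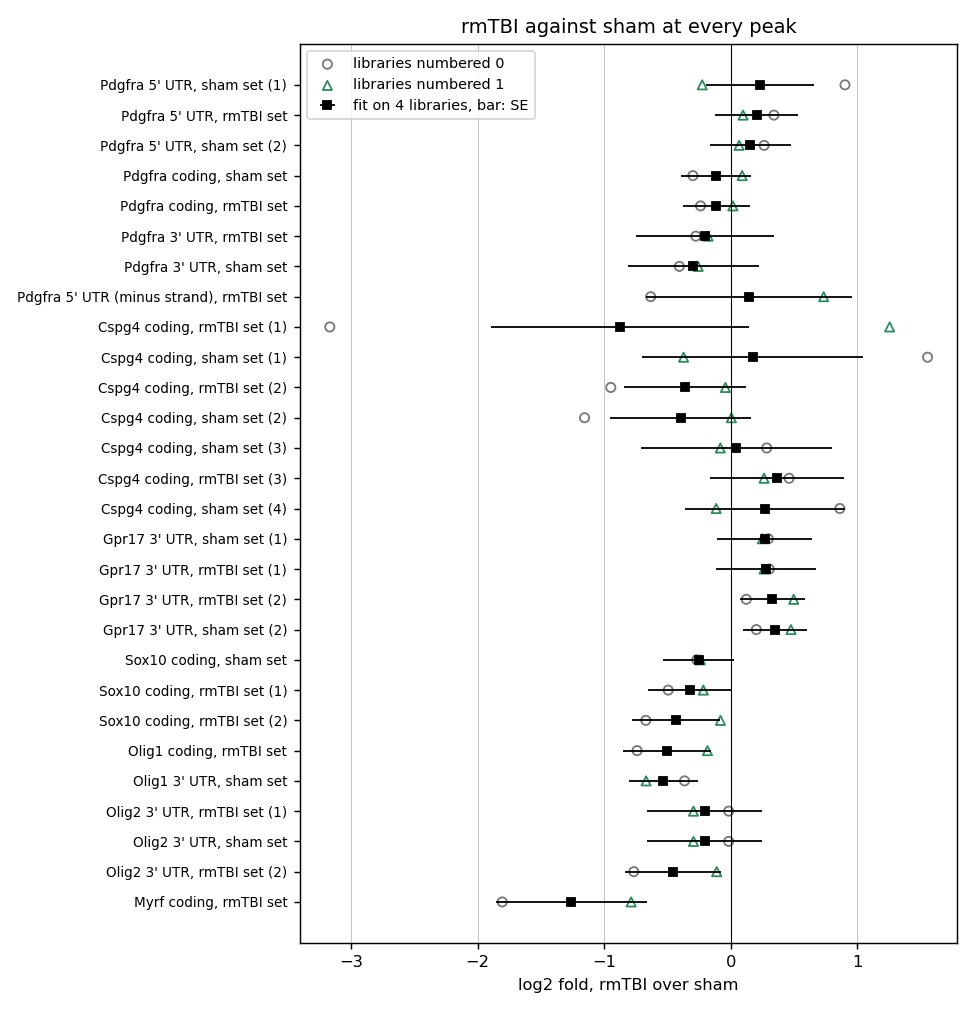
Log2 fold of rmTBI over sham at each of the 28 peaks, with black squares and bars for the fit on 4 libraries and its standard error, grey circles for the libraries numbered 0 and green triangles for those numbered 1. The rows of Sox10, Olig1, Olig2 and Myrf lie below 0 in both numbers, those of Gpr17 above 0, and the first Cspg4 row runs from -3.17 to 1.25.

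At gene level, taken as the median over a gene's rows, the log2 fold was 0.30 for Gpr17, 0.04 for Cspg4, 0.01 for Pdgfra, -0.21 for Olig2, -0.32 for Sox10, -0.52 for Olig1 and -1.26 for Myrf. The Pdgfra value takes in its low-count row on the minus strand. With at least 10 counts in every library, a filter that this row fails, the Pdgfra value was -0.12. With each library left out in turn, Sox10 (-0.45 to -0.08), Olig1 (-0.66 to -0.36) and Myrf (-1.996 to -0.90) stayed below 0. Gpr17 turned to -0.02 without rmTBI library 1, and reached 0.55 without sham library 1. Olig2 ran from -0.77 without rmTBI library 1 to 0.55 without sham library 1, Pdgfra from -0.10 to 0.43 and Cspg4 from -0.37 to 0.68. Each of these fits left a single library, and so a single library number, in a group, which mixes group with number. Within the numbers 0 and 1, Gpr17 stood at 0.25 and 0.37 and Olig2 at -0.02 and -0.30. Pdgfra (-0.26 and 0.04) and Cspg4 (0.28 and -0.04) had opposite signs there.

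At several sites the libraries differed more by number than by group, and not equally along a transcript. For the 2 sites with the most counts in each gene, the count at the site nearer the 3' end was divided by the count at the other within each library, which needs no scaling between libraries. For Pdgfra, the 3' UTR site held 0.619 and 0.573 times the coding site's count in sham and rmTBI libraries 0, and 1.96 and 1.54 times in libraries 1. For Sox10 the ratio of its coding sites was 0.416 and 0.550 in libraries 0 and 0.972 and 0.870 in libraries 1. For Gpr17 the ratio was 3.17 and 3.58 in libraries 0 and 5.83 and 4.90 in libraries 1, and for Olig1 it was 0.955 and 1.24 against 1.78 and 1.27.

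In these 4 of 6 genes both libraries numbered 1 lay above both numbered 0. Olig2 ran the other way, with its short site near the 3' end at 0.340 and 0.198 times the main site in libraries 0 and 0.0994 and 0.113 times in libraries 1. For Cspg4 the ratio was 0.400 and 0.486 in sham libraries 0 and 1 and 1.14 and 0.609 in rmTBI. Cspg4 was the 1 gene of the 6 in which the groups did not overlap, on low counts. These were 12 over 30 in sham library 0 and 16 over 14 in rmTBI library 0. With 2 libraries against 2, an exact two-sided permutation test cannot go below p = 0.333, and these ratios were not tested. No share over all genes is given beside these counts of genes, so they have no background to be read against.

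**Figure D4:**
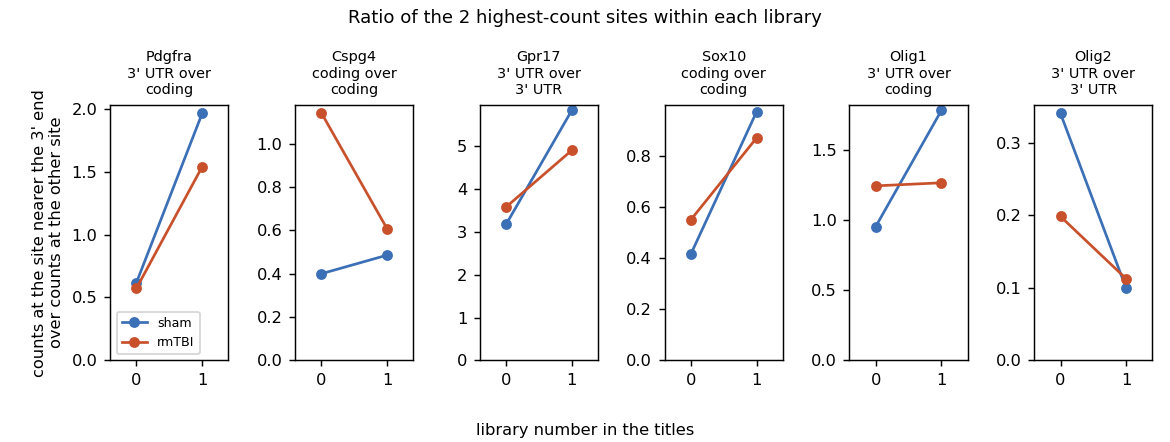
Ratio of counts at the 2 highest-count sites of each gene, the site nearer the 3' end over the other, in each library, against the library number; blue is sham, orange rmTBI, and a line joins the libraries of a group. Both lines rise from 0 to 1 for Pdgfra, Gpr17, Sox10 and Olig1 and fall for Olig2.

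Set against all peaks of the table, the log2 ratio of library 1 to library 0 in CPM was high at the leading 3' UTR site of Pdgfra, Olig2 and Gpr17 and not at every 3' UTR site. It was 1.32 in sham and 1.42 in rmTBI at the Pdgfra 3' UTR row of the rmTBI set, above 97.2% of all peaks in both groups. It was 1.22 and 0.94 at the main Olig2 site, above 96.5% and 91.0%, and 0.89 and 0.85 at the main Gpr17 site, above 91.9% and 88.9%. At the second Gpr17 3' UTR site (sham set) it was 0.0057 and 0.28, above 49.1% and 64.4%, and at the Olig1 3' UTR row it was 0.13 and -0.17, above 57.7% and 35.3%. The median over all 3' UTR peaks was 0.14 in sham and 0.19 in rmTBI, and over all coding peaks it was -0.08 and -0.06. The Sox10 row with the highest level per length was low in sham, at -0.90 (above 4.23% of all peaks), and less so in rmTBI, at -0.31 (above 26.2%).

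The authors' deposited table gives its own log2 value per peak, which compares the library numbers between the groups, as described at the start, and is no log2 of rmTBI over sham. Of the 28 rows, 1 stands in the lists of differing peaks, against 1.24% of all peaks in the authors' deposited table. It is the Cspg4 row with 30, 10, 2 and 28 counts, at a log2 of 5.32 in the authors' deposited table, where its rank is 7 of 33977 peaks, with a p-value of 0.00358 and an adjusted p-value of 0.998. The sham-set row just downstream stands at -2.46 in the authors' deposited table (p = 0.129), so that neighbouring rows of 1 coding sequence carried opposite signs. For the main sites of Gpr17 and Olig2 the authors' deposited table gives 0.0030 and -0.24, and for Myrf 1.24 (p = 0.248).

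The wider lineage was read from lists of genes chosen with earlier results of these data known, at gene level. Of 40 other genes of progenitors and lineage control, 35 were measured, with 20 higher, 15 lower and a median log2 fold of 0.11. The only called gene among them was Tcf7l2, a Wnt effector of differentiating oligodendrocytes that also marks thalamic neurons. Its leading coding peak, at 55910680 to 55919553 on chromosome 19, had 157 and 121 CPM in sham and 17.9 and 14.4 CPM in rmTBI (log2 -3.11, SE 0.28; edgeR gave it a Benjamini-Hochberg adjusted p of 0.0437). By edgeR that adjusted p was 0.0532 with library-size scaling and 0.0867 with at least 10 counts in every library, which end the call, and the adjusted p was under 0.05 in the other 8 alternatives, DESeq2 included. With the library number in the edgeR model, 9 of the 35 had a peak called higher (7.25% of all genes tested) and 5, Tcf7l2 among them, a peak called lower (6.92%). The 35 hold 187 peaks, where all 10415 genes hold 33977, and a gene with more peaks has more chances of a called one. The shares of all genes are thus no like background. Over all 10209 genes tested the median was 0.01, and 12 genes had a called peak.

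For signalling through the PDGF receptor, 18 of 21 listed genes were measured, with 10 higher, 8 lower, a median log2 fold of 0.02 and 0 called by edgeR after adjustment or at an unadjusted p under 0.05. With the library number in the edgeR model, Ptpn11 and Gab1 had a peak called lower and 0 genes one called higher. The genes with the smallest p-values were Gab1, a docking protein, at a gene-level log2 of -0.62, Ptpn11, the phosphatase SHP2, at -0.36, and Src, a kinase, at 0.37. Pdgfa, the ligand gene of PDGFRA, named here for its role after its values were seen, stood at 0.03, with gene-level CPM of 6.71 and 9.75 in sham and 6.91 and 9.82 in rmTBI.

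Genes of myelin and mature oligodendrocytes lay lower in rmTBI for all 17 measured of 30 listed, with a median log2 fold of -0.66 (-0.73 in number 0 and -0.63 in number 1). With DESeq2, run with no count filter, 17 of 18 measured were lower. None was called by edgeR after adjustment, and 13 of the 17 had a peak at an unadjusted p under 0.05, where 4.36% of all genes tested had one. With the library number in the edgeR model, 16 of the 17 had a peak called lower, where 6.92% of all genes had one, and 0 had a peak called higher. Hapln2, which encodes a link protein of nodes of Ranvier, stood at a gene-level log2 of -0.83, Mobp, a myelin protein gene, at -0.95, and Ermn, the gene of ermin, at -0.78. The summed gene-level CPM of this list was 789 and 717 in sham and 486 and 438 in rmTBI. That of the 7 genes was 53.0 and 83.7 in sham and 52.9 and 84.8 in rmTBI. Gpr17 made up the largest share of the latter, with 23.7 and 38.7 in sham and 28.3 and 47.7 in rmTBI. Gpr17 was higher in rmTBI, while 4 of the 7 genes were lower at gene level, with Pdgfra, at 0.01 with its minus-strand row, counted as higher. The difference between the lists was not tested.

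**Figure D5:**
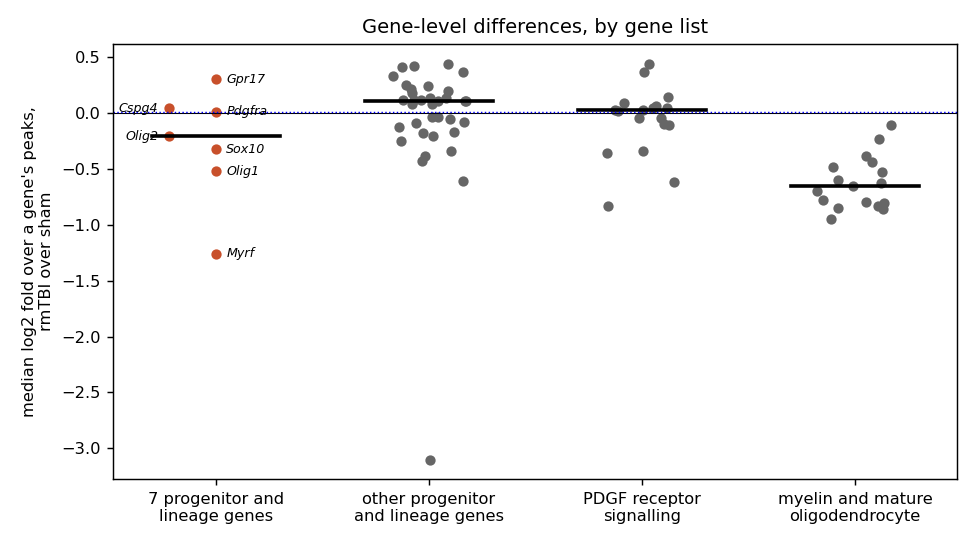
Gene-level log2 fold of rmTBI over sham for the 7 genes (orange, named) and for 3 gene lists (grey), where each point is a gene, each thick bar a list's median, and the dotted line the median of all genes tested, 0.01. The medians are -0.21 for the 7 genes, 0.11 for other progenitor and lineage genes, 0.02 for PDGF receptor signalling and -0.66 for myelin; the grey point at -3.10 is Tcf7l2.

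Markers of other cells moved beside these genes, and their part in the values above was not tested. The tissue is labelled cortex, all 8 cortical neuron markers were measured, and 7 were higher in rmTBI (median log2 0.37). All 8 thalamic markers, some of them listed because they were known to be called, were lower, with a summed CPM of 152 and 195 in sham and 28.2 and 33.9 in rmTBI. All 8 striatal markers were lower as well, with 1018 and 1009.9 CPM in sham and 562 and 543 CPM in rmTBI. Penk held most of this sum, with 784 and 763 CPM in sham and 438 and 422 CPM in rmTBI.

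For the cells that share Pdgfra, 3 of 8 fibroblast markers had a tested peak. Col6a1 and Col1a2 were higher (log2 0.95 and 1.82) and Igf2 was lower (-0.95). Col1a2 rested on 1 row with low CPM, at 0.428 and 0.438 in sham and 0.835 and 2.16 in rmTBI. The summed CPM of the 3 genes was 21.3 and 20.6 in sham and 29.4 and 27.9 in rmTBI. Col1a1, Col3a1, Dcn and Lum had no tested peak. For those that share Cspg4, 5 of 8 pericyte markers had one. Their summed CPM was 92.1 and 74.9 in sham and 82.5 and 65.9 in rmTBI. Rgs5 held most of this sum, with 70.7 and 56.5 CPM in sham and 64.7 and 46.7 CPM in rmTBI. Of the 5 genes, 4 were lower, with a median log2 of -0.19 (with library-size scaling, all 5). Microglial markers were higher for 5 of 6 measured genes (31.2 and 37.8 against 42.0 and 44.9 CPM), endothelial markers lower for 3 of 4 (25.7 and 33.1 against 26.7 and 31.9 CPM) and astrocyte markers lower for 4 of 7 (407 and 443 against 427 and 473 CPM).

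The 3 genes whose profile over the 4 libraries was closest to the median profile of the 7 were Zfp780b, Tmem186 and Ankrd34b, at Euclidean distances of 0.02, 0.04 and 0.06 in centred log2 CPM among 3662 genes of like level. The 7 genes themselves lay between 0.03 (Cspg4) and 1.22 (Myrf) from that median, and 4 libraries give such a ranking little weight.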

How the data were processed

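Per the file headers, the authors deposited whole-number read counts per peak in 4 libraries, not normalized, with a log2 value, an adjusted p-value and a p-value for each peak from an unnamed test, and lists of 277 higher and 146 lower peaks. Peaks stood in a set called in rmTBI (16034) and a set called in sham (17943). STAR, DESeq2 and GRCm39 are named, with no version or role, in the submitters' processing notes, and the sources used here give neither the peak caller nor the counter. Of 31971 peaks in genes with 1 RefSeq span, 98.3% overlapped it on GRCm38.p6, so positions were read on that build. All 7 genes matched RefSeq by symbol. Library totals were 14437317 and 26356562 counts in sham libraries 0 and 1 and 13753600 and 26888072 in rmTBI libraries 0 and 1. Depth was thus higher in both libraries numbered 1 than in both numbered 0.

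The main test of the counts was that of edgeR 4.0.16 under R 4.3.3 (TMM, filterByExpr, quasi-likelihood F-test of group alone, 2 residual degrees of freedom, Benjamini-Hochberg over 33415 peaks), and again with DESeq2 1.42.0. SE is the log2 fold divided by the square root of F. CPM is TMM-scaled, and log2 ratios within a library number or between numbers use a prior count of 2. On counts simulated for rmTBI against sham over 33348 peaks, 95.0% of 100 peaks changed 4-fold and 100% of 100 changed 8-fold were recovered, with 16 false calls. The simulation gave all peaks the same spread and no difference by library number beyond depth. Its changed peaks all had more counts than the Myrf and Cspg4 rows. These shares therefore do not give the power of the test at the rows of the 7 genes. The 7 genes and the lists were chosen with earlier results of these data known. Named beside them were called genes of each list or its 3 genes with the smallest p. The alternatives tried were another scaling and tool, the count filter, the library number as a block, each peak set alone, each library left out, and the overlap and gene summary rules. The block left 1 residual degree of freedom.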

Additional observations from a re-analysis of the deposited data

How the results depend on the processing

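The count of called peaks over the whole table was 29 with all libraries and group alone by edgeR. It was 138 with DESeq2, 2 with library-size scaling, 0 with at least 10 counts in every library, 17 on the rmTBI set alone, and 82 to 122 with a library left out (leaving out sham 0 gave 121, sham 1 gave 82, rmTBI 0 gave 92 and rmTBI 1 gave 122). The cause was not tested. Without a low-count filter it was 30, and on the sham set alone 27.

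With the library number as a replicate block, the edgeR model left 1 residual degree of freedom. It called 3553 of all peaks and 2 of the 28 rows of the 7 genes, against a background of 10.6%. Both rows are the main Gpr17 site, higher in rmTBI, with log2 folds of 0.27 and 0.28 and adjusted p of 0.00572 and 0.00413 (edgeR with Benjamini-Hochberg adjustment). Deviations from the group means correlated at 0.45 between libraries of the same number, and the titles do not say that the numbers pair libraries. In every other setting 0 of these rows were called.

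No row of the 7 genes changed sign under another scaling, filter, tool, block or peak set. With a library left out, signs turned at 17 rows. Such a fit leaves a single library number in a group, so these turns mix group with number. For Pdgfra the log2 folds ran from -0.15 to 0.84 and from -0.012 to 0.35 (5' UTR), from -0.32 to 0.10 and from -0.25 to 0.013 (coding), and from -1.13 to 0.64 and from -1.18 to 0.47 (3' UTR). For Cspg4 they ran from -2.90 to 0.77, -0.50 to 2.14, -1.15 to 0.055, -1.36 to 0.072, -0.37 to 0.75 and -0.13 to 0.96. For Gpr17 they ran from -0.18 to 0.74 and from -0.22 to 0.80, for Sox10 from -0.83 to 0.064, and for both rows of the main Olig2 site from -0.77 to 0.55. Taking each gene at its highest-count row moved Pdgfra to -0.30 and Cspg4 to -0.36. The gene-level fold of Pdgfra also turned to -0.02 with DESeq2 and -0.12 at the count minimum, and that of Cspg4 to -0.0027 at the count minimum and -0.39 on the rmTBI set. The number of rows overlapping the other set was 19 at 1 base and 18 at 50% of each peak. Depth limits Cspg4, with rows down to 2 counts in a library, and the Myrf row and the minus-strand Pdgfra row, both down to 5.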
